A study of Mus musculus with 22 samples.

Results

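The Myc, Max and Mxd network is described here through 10 genes, chosen by symbol from the 39056 genes of the count table: Myc, Mycn, Mycl, Max, Mxd1, Mxd4, Mxi1, Mnt, Mlx and Mlxip. Each symbol matched 1 row, and all 10 genes passed the filter on low counts, which kept 14072 genes. RNA of the PFC came from 11 male mice of 8 to 12 weeks on a C57BL/6J background that carry tetO-EGFP/Rpl10a and CaMKIIα-tTA, so that a ribosomal protein with an EGFP tag is made where the CaMKIIα promoter is active. Control mice (n = 3) received normal saline i.p., EtOH mice (n = 4) received ethanol to 2 g/kg per day, and EtOH+ABT-888 mice (n = 4) received the same ethanol with 25 mg/kg of the PARP inhibitor ABT-888 on day 4 only. All mice, the Control mice included, carried the transgenes and had 2 injections per day for 4 days, and the tissue was taken 2 h after the last one. Every mouse gave a TRAP library, the RNA pulled down with the tagged ribosomes (ribosomal engagement, RE), and a total-RNA library of the same lysate, which makes 22 libraries in 6 groups.

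MYC, MYCN and MYCL are transcription factors of the basic helix-loop-helix leucine zipper class that bind DNA as dimers with MAX and raise transcription of genes for growth, ribosome production and metabolism. MXD1, MXI1, MXD4 and MNT also pair with MAX, compete for the same E-box sequences and recruit SIN3 and histone deacetylases, which lowers transcription. MLX pairs with MLXIP (MondoA), a sensor of glucose phosphates, and with some MXD proteins and MNT, and so links the network to sugar metabolism. In the brain, MYCN is best known for the division of neural progenitors, while the MXD proteins are associated with cells that have stopped dividing.

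Mycn (ENSMUSG00000037169.14) lies at chr12:12936093-12941914 on the minus strand of mm10, Mycl (ENSMUSG00000028654.13) at chr4:122995652-123002485 on the plus strand, Mxd1 (ENSMUSG00000001156.9) at chr6:86647042-86669161 on the minus strand and Mnt (ENSMUSG00000000282.12) at chr11:74830920-74845725 on the plus strand. These 4 genes passed the test between EtOH_total-RNA and Control_total-RNA, so the RefSeq windows around their starts (GRCm38.p6, 250 bases before to 50 bases after the annotated start, read on the gene's strand) are shown, with the E-box CACGTG and its variant CACGCG in capitals. Mycn, chr12:12941787-12942086, minus strand, holds neither:
Mycn: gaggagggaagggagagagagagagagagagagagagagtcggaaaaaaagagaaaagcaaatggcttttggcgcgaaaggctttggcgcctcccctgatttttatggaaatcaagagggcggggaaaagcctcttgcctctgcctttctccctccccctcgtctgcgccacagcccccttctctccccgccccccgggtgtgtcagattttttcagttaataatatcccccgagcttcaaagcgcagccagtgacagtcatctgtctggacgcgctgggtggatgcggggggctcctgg
Mycl, chr4:122995681-122995980, plus strand, holds CACGCG, which begins 20 bases before the RefSeq start of this window, inside the gene given above:
Mycl: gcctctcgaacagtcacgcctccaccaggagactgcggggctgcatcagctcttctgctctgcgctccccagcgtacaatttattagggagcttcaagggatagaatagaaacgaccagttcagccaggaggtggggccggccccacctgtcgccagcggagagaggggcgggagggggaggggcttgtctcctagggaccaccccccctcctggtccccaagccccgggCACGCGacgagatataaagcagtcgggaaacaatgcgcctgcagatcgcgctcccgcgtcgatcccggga
Mxd1, chr6:86669110-86669409, minus strand, holds neither:
Mxd1: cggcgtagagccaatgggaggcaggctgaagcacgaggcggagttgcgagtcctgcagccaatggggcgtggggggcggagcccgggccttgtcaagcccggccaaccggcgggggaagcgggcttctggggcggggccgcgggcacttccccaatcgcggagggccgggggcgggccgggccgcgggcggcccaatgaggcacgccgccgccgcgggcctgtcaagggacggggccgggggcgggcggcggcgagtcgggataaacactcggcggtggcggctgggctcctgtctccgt
Mnt, chr11:74830674-74830973, plus strand, holds CACGTG, which begins 123 bases before the start:
Mnt: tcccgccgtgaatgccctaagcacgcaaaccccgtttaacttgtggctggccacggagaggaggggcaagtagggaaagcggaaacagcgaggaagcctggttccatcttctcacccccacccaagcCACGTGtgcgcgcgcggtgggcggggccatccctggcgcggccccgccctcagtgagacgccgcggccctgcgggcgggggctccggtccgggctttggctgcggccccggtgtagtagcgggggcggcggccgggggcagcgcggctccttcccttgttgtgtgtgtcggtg

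Of the 10 genes, 9 had a window, 11 windows in all because Mxi1 has 3 starts, and Myc had none. CACGTG, the letters that MYC and MAX dimers are known to prefer, stood in 4 of the 11 windows, those of Max, Mxd4, Mnt and Mlx, at distances of 3, 219, 123 and 40 bases before the start. CACGTG was in 7.15% of all 32851 windows of the same length. CACGCG stood in 1 of the 11 windows and in 9.27% of all. The member windows were 55.0% to 76.67% G and C, all above the median of 52.67% over all windows, and these shares were not matched on it. CACGTG is the same on both strands, CACGCG was searched on both, and the motifs do not overlap in these windows. A match of letters is a description and not a binding site.

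The other members lie at chr15:61985391-61990374 (Myc, plus strand), chr12:76937269-76962201 (Max, minus), chr5:34173883-34187720 (Mxd4, minus), chr19:53310518-53375810 (Mxi1, plus), chr11:101087277-101092207 (Mlx, plus) and chr5:123394798-123457932 (Mlxip, plus). Mxd4, Mxi1, Mlx and Mlxip each overlap another annotated gene on the opposite strand. The strand setting of the counting is not given in the sources used here, so the reads of these 4 genes cannot be told apart from those of their antisense partners. Max, Mxd1 and Mlxip overlap short predicted genes on their own strand. Myc, Mycn, Mycl and Mnt overlap no other annotated gene.

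Each TRAP library held 6570957 to 22002618 counted reads and each total-RNA library 22132534 to 32421392, so the lowest genes are measured less precisely in TRAP. Mycn had between 4 and 178 counts per TRAP library. Against the label of the pull-down, the summed level of 5 excitatory neuron markers was lower in Control_TRAP (2349 to 2607 CPM) than in Control_total-RNA (2981 to 3645), and 4 of the 5 were called lower. The summed level of 6 interneuron markers was higher in Control_TRAP (1824 to 1909 CPM against 800.2 to 863.2). Of these 6, 3 were called higher, 1 was called lower and 2 were not called. Beside these marker counts, 59.9% of all genes were called in this comparison, and the counts are a description. The study's own qPCR check of the pull-down is not analysed here. The markers of astrocytes, microglia, oligodendrocytes, their precursors and vessels were all lower in Control_TRAP. TRAP is therefore called by the pull-down and not by a cell type. In total-RNA, the summed level of 5 microglial markers was 218.8 to 232.9 CPM in Control, 75.8 to 109.8 in EtOH and 61.3 to 176.1 in EtOH+ABT-888, and 4 of the 5 were lower in EtOH with an adjusted p-value under 0.05. The summed level of 6 vessel markers (endothelial and pericyte) was 120.8 to 142.5 CPM in Control, 87.97 to 118.4 in EtOH and 93.97 to 131.7 in EtOH+ABT-888, and 3 of the 6 were lower in EtOH by the same test. In EtOH, 2 of 5 excitatory neuron markers and 1 of 6 astrocyte markers were also called lower, and 1 of 6 interneuron, 1 of 6 astrocyte and 1 of 5 oligodendrocyte markers higher. Beside these EtOH counts, 17.6% of all genes were called in EtOH_total-RNA against Control_total-RNA. The part of these cell type markers in the total-RNA differences of the network genes was not tested. In bulk tissue, fewer cells of a type and less RNA per cell cannot be told apart.

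In Control mice Mxi1, Max and Mlx were the most abundant transcripts of the network, and the 3 Myc genes were the least abundant in total-RNA. Levels between genes are given as CPM (reads scaled to library size with TMM factors) per kb of annotated exon. In Control_total-RNA (n = 3), Mxi1 had 12.9 ± 0.320 CPM per kb (mean ± SD), Max 11.5 ± 0.606, Mlx 11.2 ± 0.0932, Mxd4 6.74 ± 0.598, Mxd1 4.22 ± 0.471 and Mnt 3.18 ± 0.558. Mlxip followed with 2.53 ± 0.176, Mycn with 2.28 ± 0.306, Mycl with 1.98 ± 0.211 and Myc with 1.19 ± 0.119. The ranges of mean ± SD overlapped between Max and Mlx, between Mnt and Mlxip, between Mlxip and Mycn and between Mycn and Mycl, so these neighbours were not separated by their spread.

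In Control_TRAP (n = 3) the order began with Mlx at 16.1 ± 3.32 CPM per kb, Max at 12.4 ± 1.62 and Mxi1 at 11.9 ± 2.34, whose ranges overlapped in that order. Mxd1, at 7.71 ± 0.891, stood level with Mxd4, at 7.48 ± 0.979. Mycn had 2.49 ± 0.508, Mycl 1.36 ± 0.282 and Myc 1.04 ± 0.0601. In EtOH_total-RNA (n = 4) the order within the Myc family differed from that of the Control mice. Mycl stood at 5.11 ± 0.934 CPM per kb, within the spread of Mnt at 5.31 ± 0.834 and Mxd1 at 5.56 ± 0.537, whereas Mycn was the lowest of the 10 at 0.867 ± 0.238.

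**Figure D1:**
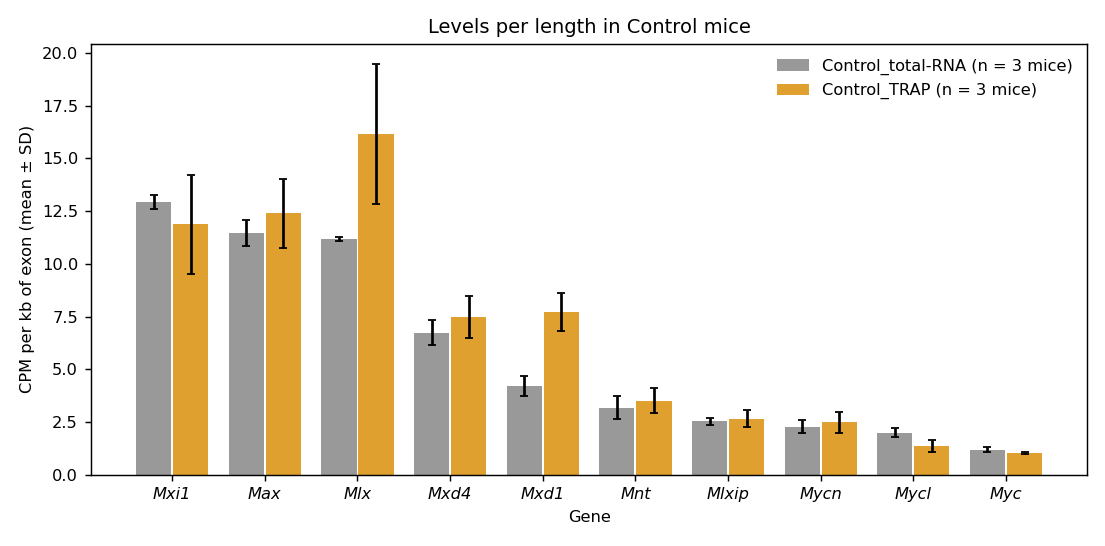
Mean level per length of each gene in Control mice, as CPM per kb of exon (bars, error bars SD, n = 3 mice per pool), in total-RNA (grey) and TRAP (orange). Mxi1, Max and Mlx stand above 11 CPM per kb in both pools, and Mlxip, Mycn, Mycl and Myc stand below 3.

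The comparison of EtOH_total-RNA with Control_total-RNA asked which transcripts of the whole PFC differ after ethanol. Mycn was lower, and Mycl, Mnt and Mxd1 were higher. Together 4 of the 10 genes had an adjusted p-value under 0.05 under the quasi-likelihood fit of edgeR, while 17.6% of all genes tested did. The median log2 fold change of the 10 was 0.21, against 0.00 over all genes. These total-RNA libraries did not enter the TRAP comparisons through which Mycn was chosen, but they came from the same mice. Where treatment groups are said below not to overlap, the share of all genes separated in the same way was not counted. Such a separation is a description.

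Mycn, which encodes N-MYC, had 6.86, 8.67 and 6.99 CPM in the Control_total-RNA libraries of mice 1, 4 and 7. It had 2.35, 2.71, 2.36 and 4.00 CPM in the EtOH_total-RNA libraries of mice 2, 5, 8 and 9. Every EtOH mouse lay below every Control mouse, and mouse 9 was the highest of the EtOH mice. The log2 fold change was -1.40 ± 0.22 (SE), a 2.64-fold lower level, with an adjusted p-value of 0.00179 (edgeR, quasi-likelihood). The call held in each of the 7 fits that left out 1 library, with an adjusted p-value between 0.000352 and 0.0169. When all 22 libraries entered 1 fit, in which the groups share an estimate of the spread, the adjusted p-value was 0.223 at the same log2 fold change.

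In EtOH+ABT-888_total-RNA, Mycn had 7.50, 4.54, 1.99 and 3.73 CPM in mice 3, 6, 10 and 11. Mouse 3 lay inside the Control range and the other 3 mice below it, so these groups overlapped. Against Control its log2 fold change was -0.76 ± 0.35, with an adjusted p-value of 0.324, and 0.0476 without mouse 3, at a log2 fold change of -1.13. Against EtOH_total-RNA the log2 difference was 0.64 ± 0.35, with an adjusted p-value of 1.0.

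The TRAP values of Mycn chose this gene, since it is in the study's list of transcripts whose TRAP fold change differed between EtOH and EtOH+ABT-888, and they are given as a description with no test. Mycn had 6.51, 9.86 and 8.25 CPM in the Control_TRAP libraries of mice 1, 4 and 7. In EtOH_TRAP it had 1.46, 0.186, 1.77 and 3.54 CPM in mice 2, 5, 8 and 9. The value of mouse 5 rests on 4 counts. In EtOH+ABT-888_TRAP it had 6.397, 3.30, 1.27 and 1.99 CPM in mice 3, 6, 10 and 11. Mouse 3 was the highest and mouse 10 the lowest of the EtOH+ABT-888 mice in both pools. Fitted against Control_TRAP, it differed by a log2 value of -2.25 ± 0.59 for EtOH and -1.35 ± 0.48 for EtOH+ABT-888, and the log2 difference between EtOH+ABT-888_TRAP and EtOH_TRAP was 0.89 ± 0.71. Cell type markers also moved in the same libraries. The median log2 fold change of the 5 excitatory neuron markers against Control_TRAP was -1.10 for EtOH (1 of 5 called lower) and -1.08 for EtOH+ABT-888 (2 of 5 called lower), although their summed level was 2349 to 2607 CPM in Control_TRAP, 2477 to 3199 in EtOH_TRAP and 2184 to 3185 in EtOH+ABT-888_TRAP. The summed level of 5 oligodendrocyte markers was 309.5 to 405.4 CPM in Control_TRAP, 288.3 to 660.4 in EtOH_TRAP and 290.9 to 1362 in EtOH+ABT-888_TRAP, with 0 of the 5 called, and 1 of 5 microglial markers was called lower in EtOH_TRAP. Of all genes, 5.24% were called in EtOH_TRAP and 0.476% in EtOH+ABT-888_TRAP, each against Control_TRAP. The part of these markers in the TRAP values of Mycn was not tested.

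**Figure D2:**
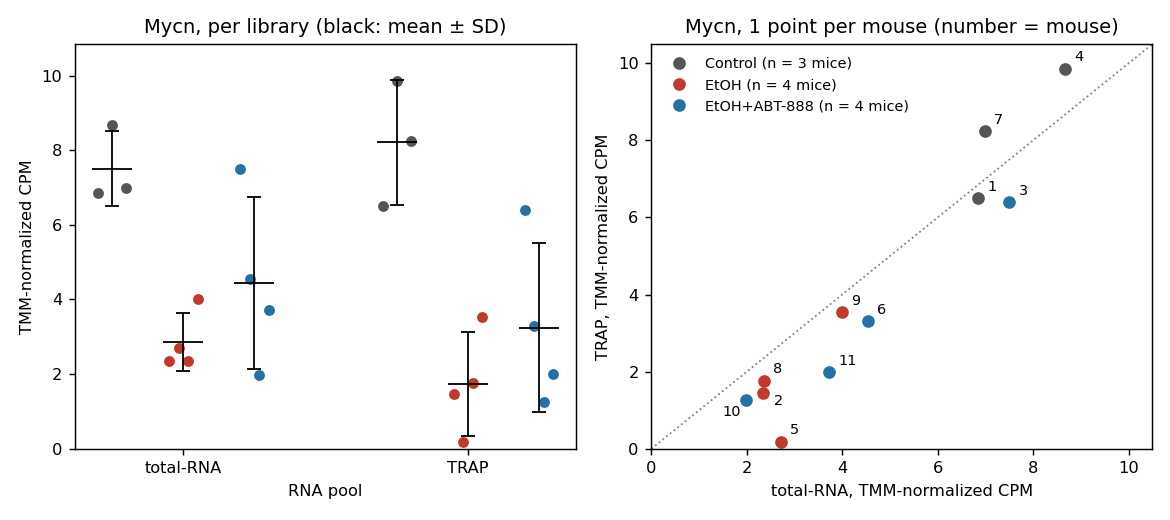
Mycn in TMM-normalized CPM. Left, 1 point per library by RNA pool and treatment, with the mean ± SD of each group in black (grey Control, red EtOH, blue EtOH+ABT-888). Right, TRAP against total-RNA, 1 point per mouse with its number and the line of equal values dotted. The 3 Control mice lie between 6.51 and 9.86 CPM, the 4 EtOH mice at or below 4.00, and mouse 3 of EtOH+ABT-888 near the Control mice.

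Mycl, which encodes L-MYC, went the other way in total-RNA. It had 7.69, 8.98 and 7.37 CPM in Control mice 1, 4 and 7. In EtOH mice 2, 5, 8 and 9 it had 22.1, 25.2, 17.02 and 18.1 CPM. The groups did not overlap, and the lowest EtOH mouse lay far above the highest Control mouse. The log2 fold change was 1.37 ± 0.17, a 2.58-fold higher level, with an adjusted p-value of 0.000463 (edgeR, quasi-likelihood). It was the only member called under every alternative of this comparison, the fit of all 22 libraries together included.

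In EtOH+ABT-888_total-RNA, Mycl had 12.1, 23.04, 21.7 and 14.3 CPM in mice 3, 6, 10 and 11, all above the Control range. Against Control it differed by a log2 value of 1.15 ± 0.24, with an adjusted p-value of 0.0680. DESeq2 gave an adjusted p-value of 0.000435 and exactTest one of 0.00119. Leaving out mouse 3 gave 0.00924 and leaving out mouse 10 gave 0.0480. In TRAP, Mycl had 4.38, 5.48 and 6.65 CPM in the Control mice, 9.39, 6.73, 4.67 and 8.36 in the EtOH mice and 4.76, 5.85, 5.59 and 6.73 in the EtOH+ABT-888 mice. The 3 TRAP groups overlapped, with log2 fold changes against Control_TRAP of 0.41 ± 0.31 for EtOH and 0.07 ± 0.31 for EtOH+ABT-888.

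Myc itself, the founding member of the family, was low in every group. Its total-RNA level was 2.97 to 3.59 CPM in Control, 3.58 to 5.29 in EtOH and 2.65 to 5.03 in EtOH+ABT-888. With EtOH it differed by a log2 value of 0.36 ± 0.22, with an adjusted p-value of 0.269, and with EtOH+ABT-888 by 0.21 ± 0.27. A single EtOH mouse, mouse 5, held the highest value, and the groups overlapped. In TRAP, Myc lay between 2.18 and 3.83 CPM in all 11 libraries.

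Max, the shared partner, showed no difference past the test in total-RNA. Its total-RNA level was 39.9 to 43.8 CPM in Control, 40.0 to 52.9 in EtOH and 38.6 to 51.7 in EtOH+ABT-888. The log2 fold changes were 0.16 ± 0.12 and 0.11 ± 0.13, with adjusted p-values of 0.386 and 0.692. In TRAP, Max was 37.9 to 48.6 CPM in Control, 43.6 to 51.3 in EtOH and 47.0 to 53.3 in EtOH+ABT-888.

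Among the repressor partners, Mnt, which encodes the most widely expressed MAX-binding repressor, was higher in EtOH_total-RNA. It had 14.3, 17.5 and 12.4 CPM in Control mice 1, 4 and 7. It had 30, 24.6, 21.95 and 21.7 CPM in EtOH mice 2, 5, 8 and 9. The groups did not overlap. The log2 fold change was 0.74 ± 0.16, a 1.67-fold higher level, with an adjusted p-value of 0.00843 (edgeR, quasi-likelihood). It stayed below 0.05 in the 7 fits that left out 1 library, with a highest adjusted p-value of 0.0496, and was 0.0845 in the fit of all 22 libraries together.

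In EtOH+ABT-888_total-RNA, Mnt had 19.7, 20.2, 19.9 and 15.3 CPM in mice 3, 6, 10 and 11. Mouse 11 lay inside the Control range, and all 4 mice lay below every EtOH mouse. Its log2 difference was 0.35 ± 0.17 against Control, with an adjusted p-value of 0.333. Against EtOH_total-RNA it was -0.39 ± 0.15, the only one of the 10 genes with an unadjusted p-value under 0.05 there (p-value 0.0259, adjusted 1.0). In TRAP, given as a description, Mnt had 18.5, 17 and 13.1 CPM in Control, 45.7, 41.6, 25.3 and 28.6 in EtOH and 26.8, 28.7, 36.8 and 25.3 in EtOH+ABT-888. Both treated groups lay above the Control range in TRAP, with log2 fold changes of 1.14 ± 0.24 and 0.88 ± 0.22.

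Mxd1, which encodes MAD1, had 30.5, 32.8 and 26.3 CPM in the Control_total-RNA libraries of mice 1, 4 and 7. In EtOH_total-RNA it had 43.3, 37.7, 34.8 and 41.4 CPM in mice 2, 5, 8 and 9. In EtOH+ABT-888_total-RNA it had 39.3, 35.1, 37.3 and 41.8 CPM in mice 3, 6, 10 and 11. Neither treated group overlapped with Control, and the treated groups covered nearly the same range. The log2 fold change was 0.40 ± 0.12 for EtOH, with an adjusted p-value of 0.0402 (edgeR, quasi-likelihood), and 0.36 ± 0.13 for EtOH+ABT-888, with 0.203. The EtOH call was lost in 5 of the 7 fits that left out 1 library, those without Control mouse 1, 4 or 7 or EtOH mouse 2 or 5, with adjusted p-values up to 0.167, and in the fit of all 22 libraries together (0.166). In TRAP, Mxd1 was 49.8 to 61.7 CPM in Control, 68.0 to 84.6 in EtOH and 65.0 to 90.2 in EtOH+ABT-888, with log2 fold changes of 0.55 ± 0.15 and 0.58 ± 0.18.

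Mxd4 and Mxi1, which encode repressors of the same family, did not pass the test in total-RNA. Mxd4 was 51.5 to 61.2 CPM in Control_total-RNA, 62.6 to 73.1 in EtOH and 68.4 to 79.5 in EtOH+ABT-888, and Mxi1 was 86.0 to 90.3, 95.4 to 113.0 and 101.8 to 112.0. The treated groups lay above the Control group for both genes, a separation given as a description only, since its share over all genes was not counted. The log2 fold changes of Mxd4 were 0.22 ± 0.11 and 0.37 ± 0.11, with adjusted p-values of 0.168 and 0.160, and DESeq2 gave 0.0412 for the second. Those of Mxi1 were 0.21 ± 0.10 and 0.26 ± 0.10, with adjusted p-values of 0.165 and 0.220. In TRAP the 3 groups overlapped for both genes, with log2 fold changes between -0.05 and 0.29.

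Mlx and Mlxip, the arm of the network that binds carbohydrate response elements, did not pass the test in total-RNA either. Mlx was 22.1 to 22.5 CPM in Control_total-RNA, 18.1 to 22.8 in EtOH and 18.5 to 22.6 in EtOH+ABT-888, with log2 fold changes of -0.16 ± 0.12 and -0.14 ± 0.13. Mlxip was 19.4 to 22.03, 21.7 to 27.7 and 21.99 to 31.6 CPM, with log2 fold changes of 0.20 ± 0.13 and 0.39 ± 0.15 and adjusted p-values of 0.284 and 0.251. The smallest adjusted p-value of either gene in total-RNA was thus that of Mlxip in EtOH+ABT-888.

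**Figure D3:**
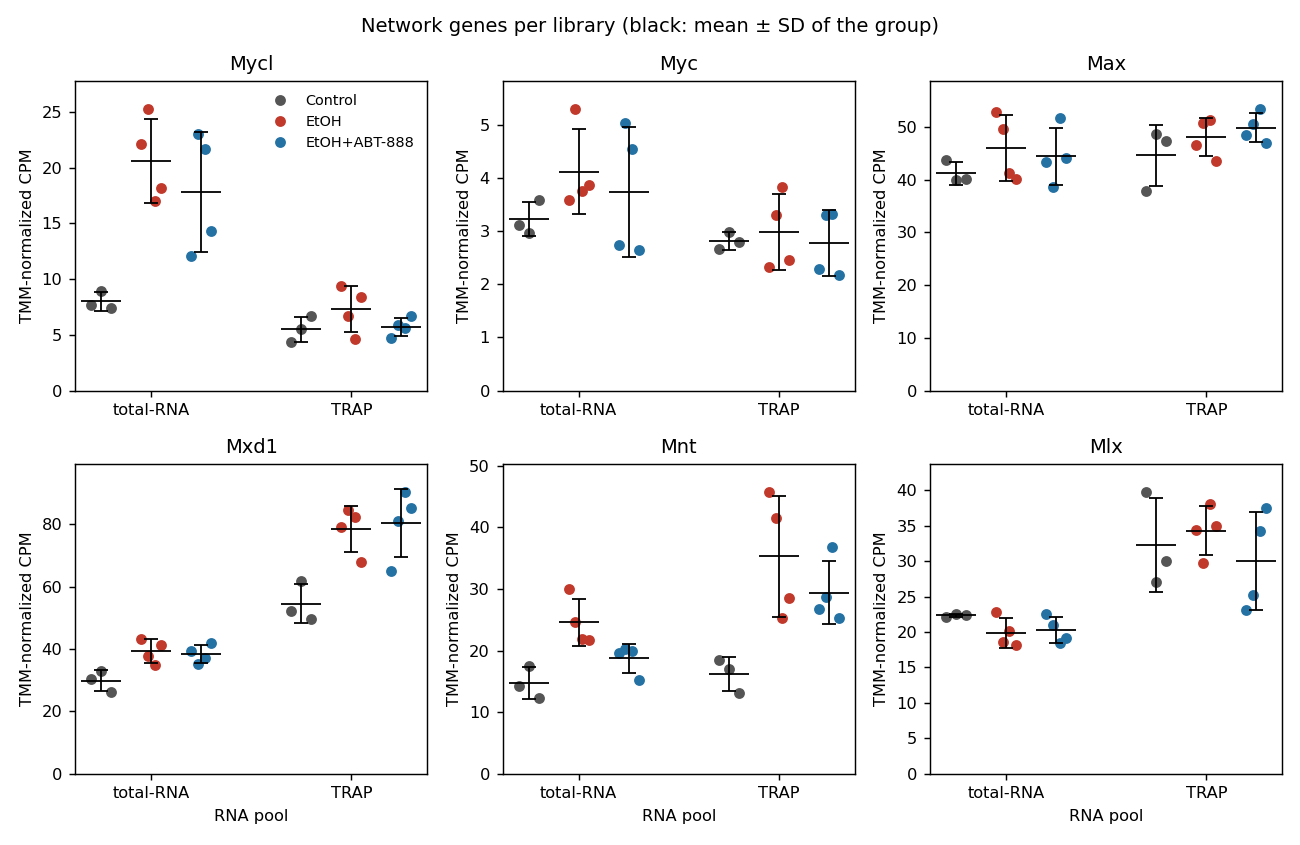
TMM-normalized CPM of 6 network genes in every library, by RNA pool and treatment (1 point per library, mean ± SD of the group in black, n = 3 Control, 4 EtOH and 4 EtOH+ABT-888 mice). Mycl stands at 12.1 CPM or more in every treated total-RNA library and at 9.39 or less in every TRAP library, and Mxd1 is higher in TRAP than in total-RNA in every mouse.

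Over all members, EtOH+ABT-888_total-RNA against Control_total-RNA called 0 of the 10 genes under the quasi-likelihood fit of edgeR, where 0.263% of all genes passed. Before adjustment 5 had a p-value under 0.05 (Mycl, Mxd1, Mxd4, Mxi1 and Mlxip), as did 15.9% of all genes. The exactTest of edgeR called 1 (Mycl) and 3.87% of all genes, and DESeq2 called 2 (Mycl and Mxd4) and 4.41% of all genes. Without mouse 3 the quasi-likelihood test called 2, Mycn and Mycl, and 6.18% of all genes, and without mouse 10 it called 1, Mycl, and 1.45% of all genes. Set directly against EtOH_total-RNA, EtOH+ABT-888_total-RNA called 0 of the 10 genes and 0% of all genes. Before adjustment 1 of the 10 (Mnt) and 1.91% of all genes had a p-value under 0.05, and exactTest and DESeq2 each called 0 of the 10 and 0.0142% of all genes. The 2 comparisons with Control share the Control mice, so they are set side by side and not used as support for each other.

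Values of the treatment comparisons in TRAP chose Mycn, so it is left out of their counts, which are given for completeness over the other 9 genes. Beside 5.24% of all genes, EtOH_TRAP against Control_TRAP had 1 of the 9, Mnt, under an adjusted p-value of 0.05 (edgeR, quasi-likelihood). Mnt was no longer under it without the Control_TRAP library of mouse 1, 4 or 7 (adjusted p-values up to 0.115). Mxd1, a partner of Max, was just outside it, with an adjusted p-value of 0.0572, and was inside it with exactTest (0.0248), with DESeq2 (0.0144) and without the EtOH_TRAP library of mouse 9 (0.0276). Those tools called 2 of the 9 each, Mnt and Mxd1, beside 9.7% of all genes with exactTest and 11.7% with DESeq2. EtOH+ABT-888_TRAP against Control_TRAP had 0 of the 9 and 0.476% of all genes under it. Before adjustment 2 of the 9 (Mxd1 and Mnt) and 12.1% of all genes had a p-value under 0.05, and 1 of the 9, Mnt, was called by exactTest (2.25% of all genes) and by DESeq2 (3.17%). EtOH+ABT-888_TRAP against EtOH_TRAP had 0 of the 9 and 0% of all genes under it, also with exactTest and DESeq2 (0% each), and 0 of the 9 and 0.966% of all genes before adjustment.

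**Figure D4:**
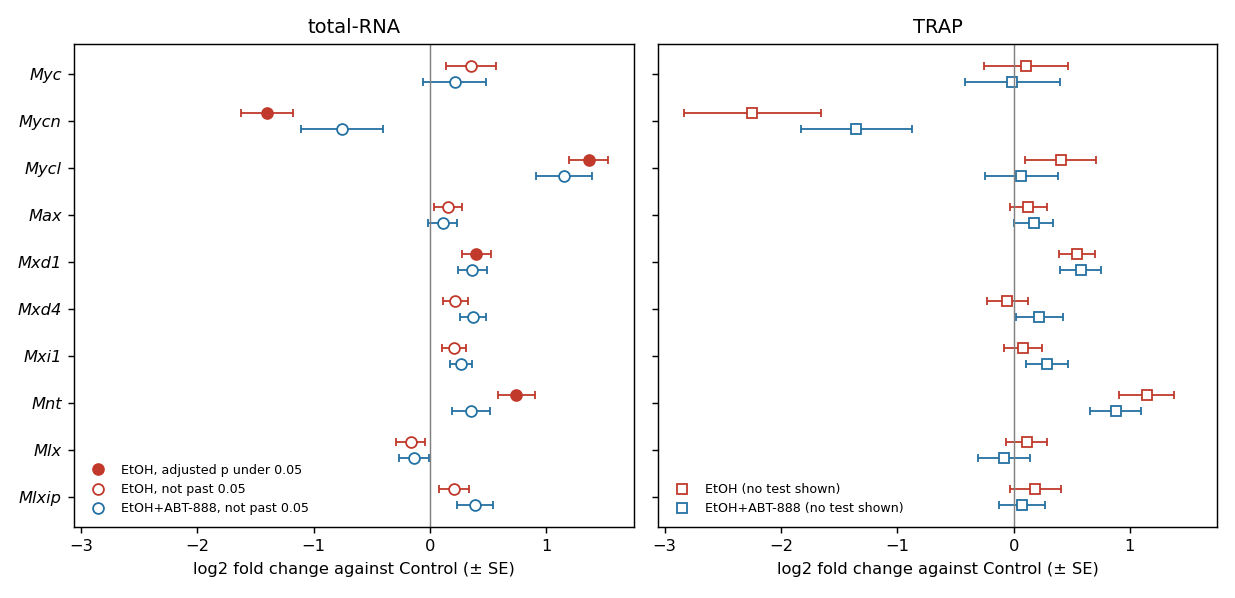
Log2 fold change against Control (± SE) of the 10 genes for EtOH (red) and EtOH+ABT-888 (blue), in total-RNA (left, filled where the adjusted p-value is under 0.05) and in TRAP (right, shown as a description). In total-RNA, Mycn is at -1.40 and Mycl at 1.37 with EtOH. In TRAP, Mycn is at -2.25 and Mnt at 1.14.

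Whether a transcript stood higher on tagged ribosomes than in the tissue was compared within each treatment, and Mycn, whose TRAP values chose it, is described only. Mxd1 and Mlx were higher in TRAP and Mycl was lower under all 3 treatments. The share of all genes called was large in each: 59.9% in Control, where 3 of the 9 network genes other than Mycn were called, 50.7% in EtOH, where 3 of the 9 were called, and 41.0% in EtOH+ABT-888, where 4 of the 9 were called. Against these backgrounds the counts are no result about the members as a group.

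Mxd1 was higher in TRAP than in total-RNA in each of the 11 mice, by 0.77 to 0.92 on the log2 scale in Control, 0.72 to 1.24 in EtOH and 0.73 to 1.28 in EtOH+ABT-888. The fitted log2 differences were 0.85 ± 0.12, 0.98 ± 0.13 and 1.07 ± 0.15, with adjusted p-values of 9.8e-05, 0.000103 and 0.000226 under the quasi-likelihood fit of edgeR. Mlx was also higher in TRAP in all 11 mice. Its fitted log2 differences were 0.50 ± 0.14, 0.77 ± 0.15 and 0.57 ± 0.20, with adjusted p-values of 0.00966, 0.00129 and 0.0362. The last call was lost in 6 of 8 fits that left out 1 library, those without the TRAP library of mouse 10 or 11 or the total-RNA library of any of the 4 mice, with adjusted p-values up to 0.118.

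Mycl was lower in TRAP than in total-RNA in all 11 mice. The log2 difference within a mouse was -0.81 to -0.15 in Control, -1.90 to -1.11 in EtOH and -1.97 to -1.08 in EtOH+ABT-888. The fitted values were -0.54 ± 0.20, -1.53 ± 0.24 and -1.63 ± 0.26, with adjusted p-values of 0.0372, 0.000295 and 0.000549 under the quasi-likelihood fit of edgeR. The Control call was lost in 5 of 6 fits that left out 1 library, all except the fit without the TRAP library of mouse 7, with adjusted p-values up to 0.1505, and when all 22 libraries entered 1 fit (0.125).

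Mnt was higher in TRAP by 0.11 ± 0.18 on the log2 scale in Control, 0.50 ± 0.20 in EtOH and 0.65 ± 0.19 in EtOH+ABT-888, with adjusted p-values of 0.598, 0.0577 and 0.0153. The last call was lost without the total-RNA library of mouse 11, at an adjusted p-value of 0.0611. With the mouse as a block, the EtOH value of Mnt had an adjusted p-value of 0.0113 and that of Mxi1, which was lower in TRAP, 0.0278 against 0.0847 without the block. The EtOH value of Mnt also passed without the TRAP library of mouse 8 or 9 or the total-RNA library of mouse 2, and that of Mxi1 without the TRAP library of mouse 9. The Control value of Mxi1 passed without the TRAP library of mouse 1, at an adjusted p-value of 0.0251. Max, Mxd4, Mlxip and Myc did not pass in any of the 3 treatments, with fitted log2 differences between -0.48 and 0.16.

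Mycn differed little between the pools in Control mice, where the log2 difference of TRAP minus total-RNA was -0.07 to 0.24. In EtOH it was -3.58 to -0.18 and in EtOH+ABT-888 it was -0.89 to -0.23, so that each treated mouse had less Mycn in TRAP than in total-RNA. The value of -3.58 belongs to mouse 5, the library with 4 counts.

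The interaction asked whether the EtOH difference was unequal in TRAP and total-RNA. It holds the TRAP difference that chose Mycn, which is therefore not counted. It called 0 of the other 9 genes under the quasi-likelihood fit of edgeR, and 0.0213% of all genes, and both the likelihood ratio test and DESeq2 called 0 of the 9 and 0.114% of all genes. Before adjustment 1 of the 9 and 4.87% of all genes had a p-value under 0.05. The 1 was Mycl, whose EtOH difference was lower in TRAP than in total-RNA by a log2 value of -0.98 ± 0.36 (p-value 0.0124, adjusted 0.895). For Mxd1 the interaction was 0.13 ± 0.19 and for Mnt 0.39 ± 0.29. The value for Mycn, given as a description, was -0.87 ± 0.79.

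**Figure D5:**
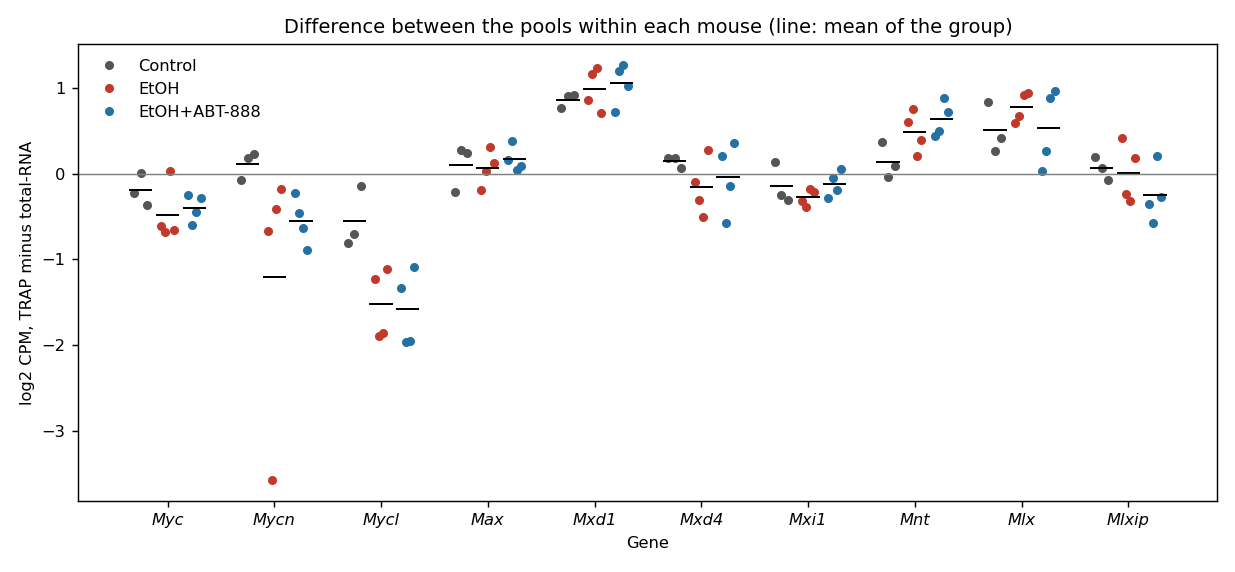
Difference between TRAP and total-RNA in log2 CPM within each mouse for the 10 genes (1 point per mouse, black line the mean of the group, grey Control, red EtOH, blue EtOH+ABT-888). Mycl is below 0 and Mxd1 and Mlx are above 0 in all 11 mice, and the lowest point, at -3.58, is Mycn in EtOH mouse 5.

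The other genes of the network and of its cofactors and targets were taken as lists and are described by counts, beside 17.6% of all genes called, for EtOH_total-RNA against Control_total-RNA. Mga, a MAX partner, was measured but did not pass (log2 fold change 0.09 ± 0.12). Mxd3, with 360 counts in all, and Mlxipl, with 189, did not pass the filter. Both known targets of MondoA and MLX, Txnip and Arrdc4, alpha-arrestins that limit glucose uptake, were higher. Txnip was 14.4 to 16.5 CPM in Control_total-RNA, 45.6 to 66.8 in EtOH and 27.7 to 94.0 in EtOH+ABT-888. Its log2 fold changes were 1.84 ± 0.16 and 2.03 ± 0.33, with adjusted p-values of 5.7e-05 and 0.0470 under the quasi-likelihood fit of edgeR.

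Arrdc4 was 5.55 to 6.01 CPM in Control_total-RNA, 9.07 to 14.4 in EtOH and 8.63 to 17.5 in EtOH+ABT-888. Its log2 fold change was 1.06 ± 0.18 with EtOH, with an adjusted p-value of 0.00228, and 1.00 ± 0.24 with EtOH+ABT-888, with 0.108. In TRAP, Txnip was 1.49 to 2.84 CPM in Control, 3.34 to 8.35 in EtOH and 3.45 to 11.9 in EtOH+ABT-888, and Arrdc4 was 6.81 to 9.90, 16.02 to 28.9 and 11.4 to 41.9. For both genes the treated libraries lay above the Control libraries in both pools.

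Of 11 corepressor genes of the MXD proteins, 4 were called: Sap30 (1.18 ± 0.18) and Rbbp4 (0.34 ± 0.11) were higher, and Sin3b (-0.39 ± 0.10) and Suds3 (-0.35 ± 0.11), all parts of the SIN3 complex, were lower. The median of the 11 was 0.04. Of 14 measured genes for the turnover of MYC proteins, 5 were called and all 5 were lower, with a median of -0.09 over the 14. Among them were Usp28, a deubiquitinase (-0.80 ± 0.25), Fbxw7, a ubiquitin ligase subunit that marks MYC and N-MYC for degradation (-0.42 ± 0.10), Stub1 (-0.42 ± 0.11) and Ppp2r5a, a subunit of protein phosphatase 2A (-0.38 ± 0.11).

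Of 30 growth targets of MYC, 7 were called, 4 higher and 3 lower, with a median log2 fold change of -0.06. The largest changes were those of Shmt1 (1.94 ± 0.44), a folate enzyme, Ppat (0.61 ± 0.15), which opens purine synthesis, Tfrc (0.59 ± 0.13), the transferrin receptor, and Ldha (-0.52 ± 0.12), lactate dehydrogenase. Shmt1 had only 18 to 20 counts per Control_total-RNA library. With EtOH+ABT-888, 0 genes of the corepressor, turnover and growth lists were called in total-RNA by the quasi-likelihood test, which called 0.263% of all genes there.

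The genes whose pattern was most like that of Mycn were found by Pearson's r of log2 CPM over the 22 libraries among 12986 protein-coding genes. They were Lrrc55 (r = 0.920), an auxiliary subunit of BK potassium channels, Tsga10 (0.914), Ift172 (0.902), which carries cargo in cilia, Wdr76 (0.899) and Tmco3 (0.898). These points share mice, pools and treatment groups, and r is a description. Lrrc55 was 21.9 to 28.9 CPM in Control_total-RNA and 12.9 to 18.8 in EtOH_total-RNA, and 23.1 to 27.3 in Control_TRAP and 4.92 to 11.8 in EtOH_TRAP. Like Mycn, it was lower in every EtOH mouse than in every Control mouse in both pools. Its choice by r with Mycn over these same libraries favours such a likeness. Among the network genes, r with Mycn was -0.76 for Mnt, -0.52 for Mxd1 and -0.51 for Max, and between -0.24 and 0.11 for the other 6. Within a pool, over 11 libraries each, r differed from these values. In total-RNA it was -0.82 for Mycl, between -0.65 and -0.34 for Mnt, Max, Mxi1, Myc, Mxd1 and Mxd4, 0.60 for Mlx and 0.07 for Mlxip. In TRAP it was -0.79 for Mnt, -0.76 for Mxd1, -0.43 for Max and between -0.32 and 0.23 for the others.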

How the data were processed

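PFC RNA of 11 mice was sequenced as TRAP and total-RNA libraries. The authors aligned reads to mm10 with STAR and deposited raw counts per ENSEMBL gene from featureCounts, without normalization. The submitters' processing notes also name edgeR. Versions and the handling of reads that map to several places are not given in the sources used here. Names, positions and exon lengths came from GENCODE release 21 (38872 of 39056 genes found). Genes with at least 500 counts in total and detected in at least 3 libraries were kept (14072 kept, 24984 removed). Tests ran under R 4.3.3 in edgeR 4.0.16 (TMM factors, quasi-likelihood test, libraries of the groups compared, all 22 libraries for the interaction), beside DESeq2 1.42.0 and limma 3.58.1, with Benjamini-Hochberg adjustment over all genes and a threshold of 0.05. Log2 CPM used a prior count of 1. Members, lists and tests were chosen with earlier results of these data known. All 10 members are named, with at most 4 genes per list and comparison, those called with the largest change, plus Txnip and Arrdc4, and the 5 genes most like Mycn. The treatment result of the list of MYC coactivators is not reported here.

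Libraries of a mouse share its animal id. The library titles name treatment and RNA pool but no animal. The ids run in the order of the libraries within each pool, and the pairing of the pools rests on them. After removal of group means, TRAP and total-RNA of the same mouse correlated across genes with r between 0.102 and 0.622, so the mouse was used as a block in an alternative. Other alternatives were exactTest (the likelihood ratio test for the interaction), DESeq2, RLE factors, no filter, a single fit over all 22 libraries, a threshold of 0.01 and fits that each left out 1 library. The spread between mice includes counting error, which is largest for genes with few counts. The promoter windows are those of RefSeq for GRCm38.p6.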

Additional observations from a re-analysis of the deposited data

Results flagged for a closer look

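Of 40 groups of 4 libraries (10 genes in the 4 groups of that size), 2 held a library whose gap to the nearest other was above Dixon's critical value of 0.829 as a share of the group's range. About 1 in 20 groups is expected to pass by chance. Myc in EtOH_total-RNA of mouse 5 was 5.294 CPM, above the other 3 mice at 3.58 to 3.87 CPM, with a gap of 0.830 of the range. Mnt in EtOH+ABT-888_total-RNA of mouse 11 was 15.29 CPM, below the other 3 mice at 19.7 to 20.2 CPM, with a gap of 0.885 of the range.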

How the results depend on the processing

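Over the 100 log2 fold changes (10 genes in 10 comparisons, 16 of them called), 1430 alternative values were computed: 1320 kept their direction and their side of the threshold, 36 lost the call, 26 gained one and 48 changed sign without a call on either side. None of the called values reversed. The cause of these changes was not tested. The counts of genes called in the TRAP treatment comparisons include Mycn, which their values chose, and are no test of it. Each count is given with the share of all genes called in the same fit in brackets. EtOH_TRAP against Control_TRAP went from 2 (5.24%) to 0 (0.618%) at a threshold of 0.01 and to 3 with exactTest (9.7%), with DESeq2 (11.7%) and in the fit of all 22 libraries (8.46%). EtOH+ABT-888_TRAP against Control_TRAP went from 0 (0.476%) to 1 with exactTest (2.25%), 1 with DESeq2 (3.17%) and 2 in that fit (2.86%). EtOH_total-RNA against Control_total-RNA went from 4 (17.6%) to 1 in that fit (1.07%) and to 3 at 0.01 (5.7%). EtOH+ABT-888_total-RNA against Control_total-RNA went from 0 (0.263%) to 1 with exactTest (3.87%), 2 with DESeq2 (4.41%) and 1 without the filter (1.8%). EtOH+ABT-888_TRAP against its total-RNA went from 4 (41.0%) to 2 at 0.01 (27.1%) and to 3 without the filter (20.7%), and Control_TRAP against its total-RNA went from 3 (59.9%) to 2 at 0.01 (47.2%) and in the fit of all 22 libraries (42.8%). With the mouse as a replicate block, EtOH_TRAP against EtOH_total-RNA went from 3 (50.7%) to 5 (58.8%), and it went to 4 with exactTest (52.7%), DESeq2 (53.2%) and the fit of all 22 libraries (53.6%). The block changed no other call of a network gene. Leaving out 1 library at a time gave 0 to 3 genes (0.597% to 11.0%) for EtOH_TRAP against Control_TRAP, 0 to 1 (0% to 2.65%) for EtOH+ABT-888_TRAP, 3 to 4 (6.24% to 25.7%) for EtOH_total-RNA and 0 to 2 (0% to 6.18%) for EtOH+ABT-888_total-RNA against Control. For TRAP against total-RNA it gave 2 to 3 (52.5% to 59.6%) in Control, 3 to 5 (43.6% to 50.3%) in EtOH and 2 to 4 (32.3% to 42.2%) in EtOH+ABT-888. Counts limit Mycn, with 4 counts in 1 TRAP library.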

Other observations

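Cofactors and targets of the network were also compared between the pools in Control mice, where 59.9% of all genes were called. The shares of the growth targets and corepressors called were below that background. Of 12 coactivators and partners of MYC, 8 were called, and of 14 measured turnover genes, 9 were called, shares somewhat above it. These counts are no result about the lists. Mga, the large MAX partner, was lower in TRAP by a log2 value of -0.44 ± 0.11 (edgeR's quasi-likelihood test, adjusted p-value 0.00639). Of 30 growth targets, 15 were called, 13 higher in TRAP and 2 lower, with a median log2 difference of 0.20. Srm, which makes spermidine, was higher by 1.50 ± 0.10, and Cdk4 by 1.16 ± 0.12 and the chaperone Hspe1 by 1.14 ± 0.11, while Hk2, a hexokinase, was lower (-2.44 ± 0.50). Among coactivators of MYC, Zbtb17 (1.20 ± 0.11) was higher in TRAP, and Ep400 (-0.82 ± 0.11) and Hcfc1 (-0.57 ± 0.13) were lower. Of 11 corepressor genes, 6 were called, among them Hdac1, lower in TRAP (-1.41 ± 0.24), and Hdac2, higher (0.32 ± 0.09). Txnip was lower in TRAP (-2.97 ± 0.24) and Arrdc4 higher (0.56 ± 0.19). The markers of glia and vessels were lower in these TRAP libraries, and their part in these differences was not tested.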
